A study of Mus musculus with 16 samples.

Results

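The comparison asked how the kidney transcriptome of Fcgr2b-/- lupus mice differed when the mice also lacked functional STING. It rested on 8 of the 16 arrays of the series, chosen by their titles: 4 of Fcgr2b-/- mice (labelled Fcgr2b-ko) and 4 of mice deficient in both genes (labelled Fcgr2b-ko, Sting-ko, here double-deficient). The 4 wild-type arrays served as a reference level, and 4 arrays of mice deficient in Sting alone (Sting-ko) entered only the shared estimate of the spread. All mice were 6 months old, and 100 ng of total RNA from the whole kidney of each was labelled with Cy3 and hybridized to its own single-color array. Both Fcgr2b-deficient groups had a mixed 129 and C57BL/6 background, whereas the wild-type and Sting-ko mice were C57BL/6. Strain and Fcgr2b genotype therefore cannot be told apart against wild-type, but both groups of the main comparison carried the same label for strain. For the Fcgr2b-/- mice the labels give no Sting genotype, and headings of the study's heatmaps mark them as heterozygous for the Sting allele. The Sting allele is Goldenticket (gt), a point mutation that removes function while the gene is still transcribed, and the double-deficient mice were bred with littermate controls according to the methods.

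Fcgr2b is the inhibitory Fc receptor for IgG, and mice without it make autoantibodies and develop glomerulonephritis. STING is an adaptor in the endoplasmic reticulum that is activated by cGAMP, the product of the DNA sensor cGAS, and it drives type I interferon and inflammatory genes through TBK1 and IRF3. Secreted interferon then switches on a large set of genes through response elements in their promoters.

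The lists of genes described here cover interferon responses, immune cells, injury, and the nephron. Some genes, such as Irf7, Ctss, Lcn2, and Timp1, stand in several lists, so the lists are not independent of each other. Every value of a gene is the log2 signal of its brightest probe, on a scale where 0 is the 75th percentile of the array. A difference is the double-deficient mean minus the Fcgr2b-/- mean on that scale, so that a value of −1 is 2-fold lower in the double-deficient mice. Each SE is the moderated one of a linear model (limma), with a spread estimated over all 4 genotypes. Where the Fcgr2b-/- mice varied most, it can be smaller than an SE from the 2 compared groups alone. Kidney identity was clear on the arrays, since the proximal tubule genes Slc34a1, Lrp2, and Kap, the thick limb genes Umod and Slc12a1, the collecting duct gene Aqp2, and the podocyte gene Nphs1 were well above background on all 4 arrays of each of the 3 groups.

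To show what the interferon-inducible genes share at their starts, the RefSeq promoters (GRCm38.p6, 250 bases before to 50 after the start) were searched on both strands for GAAANNGAAA, the core of the interferon-stimulated response element. Overlapping matches were each counted. The motif stood in 1131 of all 32851 promoters (3.44%), and in 28 of the 51 promoters found for the interferon-inducible genes tested (54.9%). Of the 9 genes of that list at an unadjusted p under 0.05, 8 had a promoter in the table and 3 held the motif. Their stretches are shown 5′ to 3′ on the strand of the gene, with the motif in capitals.
Isg15, chr4:156200850-156200921, minus strand: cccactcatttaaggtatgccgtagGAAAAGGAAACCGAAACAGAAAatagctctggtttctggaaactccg
Oas1a, chr5:120907505-120907570, minus strand: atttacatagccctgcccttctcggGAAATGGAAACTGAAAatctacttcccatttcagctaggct
Oas1g, chr5:120887591-120887656, minus strand: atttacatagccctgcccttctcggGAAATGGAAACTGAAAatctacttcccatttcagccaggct
In Isg15, 3 overlapping matches began 78 bases before the start. In Oas1a and Oas1g, 2 overlapping matches began 20 and 18 bases before it. These neighboring paralogs have nearly the same stretch, and their probes need not separate their RNA. A match describes the sequence and not a bound site.

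No probe passed the test across all probes. The test covered 35629 probes with clear signal on 4 or more of the 16 arrays. With limma, 0 of them (0%) were 2-fold apart with an adjusted p (Benjamini-Hochberg) under 0.05, and the smallest adjusted p was 1.0. At an unadjusted p under 0.05 there were 645 probes (1.81%), a smaller share than the 0.05 expected if the genotypes did not differ. Among the 16401 named genes, 7620 (46.5%) were lower and 8781 (53.5%) higher in the double-deficient mean, and the median difference was 0.026. At least 2-fold lower were 583 genes (3.55%), against 129 (0.787%) at least 2-fold higher. At an unadjusted p under 0.05 there were 286 lower genes (1.74%) and 81 higher genes (0.494%). All double-deficient mice lay below all Fcgr2b-/- mice for 51 genes (0.311%) and above them for 99 (0.604%). Every list below is read against these shares, and no gene named in it passed adjustment.

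The spread within the Fcgr2b-/- group was the widest of the 4 genotypes, with a median SD of 0.58 per probe, against 0.44 in the double-deficient, 0.50 in the wild-type, and 0.53 in the Sting-ko mice. Fcgr2b itself gave 0.70, 0.024, 0.064, and 0.19 in the 4 Fcgr2b-/- mice and −0.045, 0.50, −0.40, and −0.24 in the double-deficient mice, all below the 1.14 of the lowest wild-type mouse. Sting1 was at 2.69, −0.12, −0.27, and 2.49 in the Fcgr2b-/- mice and at 0.14, 0.90, −0.087, and −0.57 in the double-deficient mice (difference −1.10, SE 0.66). The Sting1 probe does not check the Goldenticket genotype. Its values were high in the same Fcgr2b-/- replicates, 1 and 4, that were high for the immune genes.

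The slide moved with the genotype. Slide 1 held Fcgr2b-/- replicates 1, 2, and 4 and double-deficient replicate 1, and slide 2 held Fcgr2b-/- replicate 3 and double-deficient replicates 2, 3, and 4. The Y-linked genes Ddx3y, Uty, Kdm5d, and Eif2s3y were high in Fcgr2b-/- replicate 3 and double-deficient replicates 2 and 4 and low in the other 5 mice, so the balance of sexes, which the labels do not give, also differed. For immune, injury, and proximal tubule genes, mean differences within slides 1 and 2 stand beside most lists, with values without single mice. Slide 2 holds a single Fcgr2b-/- mouse, and slide 1 a single double-deficient mouse. Mean differences with slide as a block or Y-linked signal as a covariate are given at the end for interferon-inducible, macrophage, injury, and proximal tubule genes. The part of slide and Y-linked signal in the results was not tested. Without Fcgr2b-/- replicate 1, the mean difference of 30 of the 35 lists moved by over 1.5 times. With any other of the compared arrays left out, 10 to 15 lists moved as far.

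**Figure D1:**
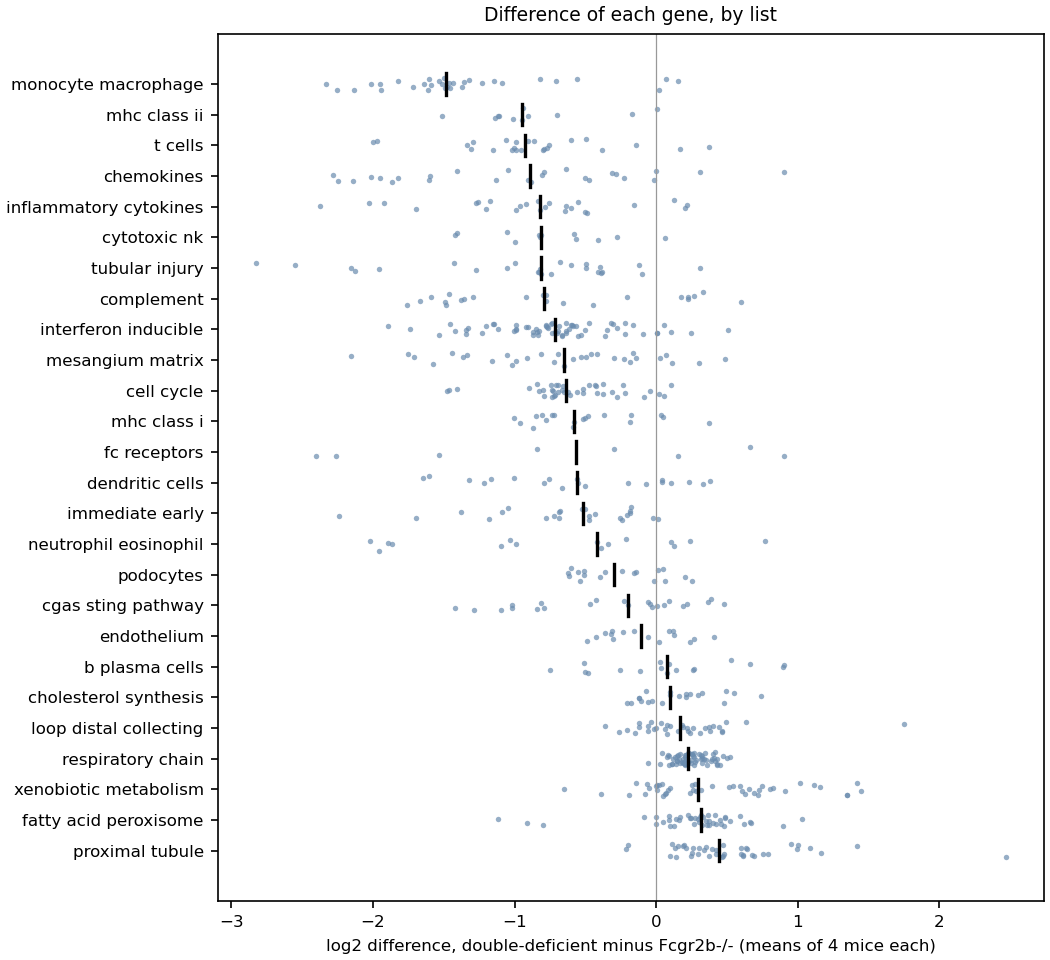
Differences of single genes by list. Each point is a gene, the horizontal axis is the log2 difference between the means of 4 double-deficient and 4 Fcgr2b-/- mice, and the black bar is the median of the list. Lists of sex-linked and sex-biased genes, clock genes, and other tissues are not drawn. Of the lists drawn, monocyte and macrophage genes lie furthest to the left, with a median of −1.49, and proximal tubule genes furthest to the right, with a median of 0.45.

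Monocyte and macrophage genes had the lowest median difference of the 35 lists. Of 32 genes tested, 29 were lower in the double-deficient mean and 26 of them at least 2-fold, with a median difference of −1.49. At an unadjusted p under 0.05 there were 15, all lower, and 2 (Cd300e and Cd68) had no overlap between the groups. The mean log2 level relative to the wild-type mean was 4.04, 1.38, 1.18, and 3.38 in Fcgr2b-/- replicates 1 to 4 and 1.02, 1.77, 1.07, and 0.63 in the double-deficient replicates. Fcgr2b-/- replicates 1 and 4 lay above every double-deficient mouse, whereas replicates 2 and 3 lay among them. Fewer macrophages and less RNA per macrophage cannot be told apart in whole kidney. The study states that the kidneys were not perfused, and it could not assign the interferon signature to blood or kidney. Signal from blood cells and from cells within the kidney therefore cannot be told apart here either. Wild-type replicates 1 to 4 were at 1.18, −0.60, −0.44, and −0.15. Double-deficient replicate 2 lay above all of them, and the other double-deficient mice lay below wild-type replicate 1 alone. The median difference of the genes between double-deficient and wild-type means was 0.78.

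The list was written with an earlier report of these data known and holds 6 genes that it named. Without them, 23 of 26 genes were lower, 20 at least 2-fold and 9 at an unadjusted p under 0.05, with a median of −1.45. The mean difference of the whole list was −1.37, and −0.86 without Fcgr2b-/- replicate 1. Within slide 1 it was −1.91 and within slide 2 it was −0.019. Among the arrays of high Y-linked signal it was 0.025, again with 1 Fcgr2b-/- mouse, and among those of low Y-linked signal −1.89.

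Chil3, a chitinase-like protein of activated macrophages, was at 2.71, −1.61, −3.04, and 1.08 in the Fcgr2b-/- mice and at −2.82, −1.93, −2.34, and −3.09 in the double-deficient mice (difference −2.33, SE 0.95). The groups overlapped, because Fcgr2b-/- replicate 3 was as low as the lowest double-deficient mice. Acod1, which makes itaconate in activated macrophages, was at 2.0, −2.70, −2.14, and 0.20 and at −3.39, −2.53, −2.09, and −2.70 (difference −2.02, SE 0.76). All 8 compared arrays had it well above background, against 0 of 4 in wild-type. Clec4e (Mincle), a lectin receptor for microbial glycolipids and dead cells, was at 2.31, −1.84, −1.34, and 0.92 and at −1.79, −1.88, −1.70, and −2.37 (difference −1.95, SE 0.80). Fpr1, a formyl peptide receptor, was at 1.16, −1.70, −2.47, and 0.80 and at −1.72, −2.64, −2.53, and −3.09 (difference −1.94, SE 0.71). For each of these, the high values were those of Fcgr2b-/- replicates 1 and 4.

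**Figure D2:**
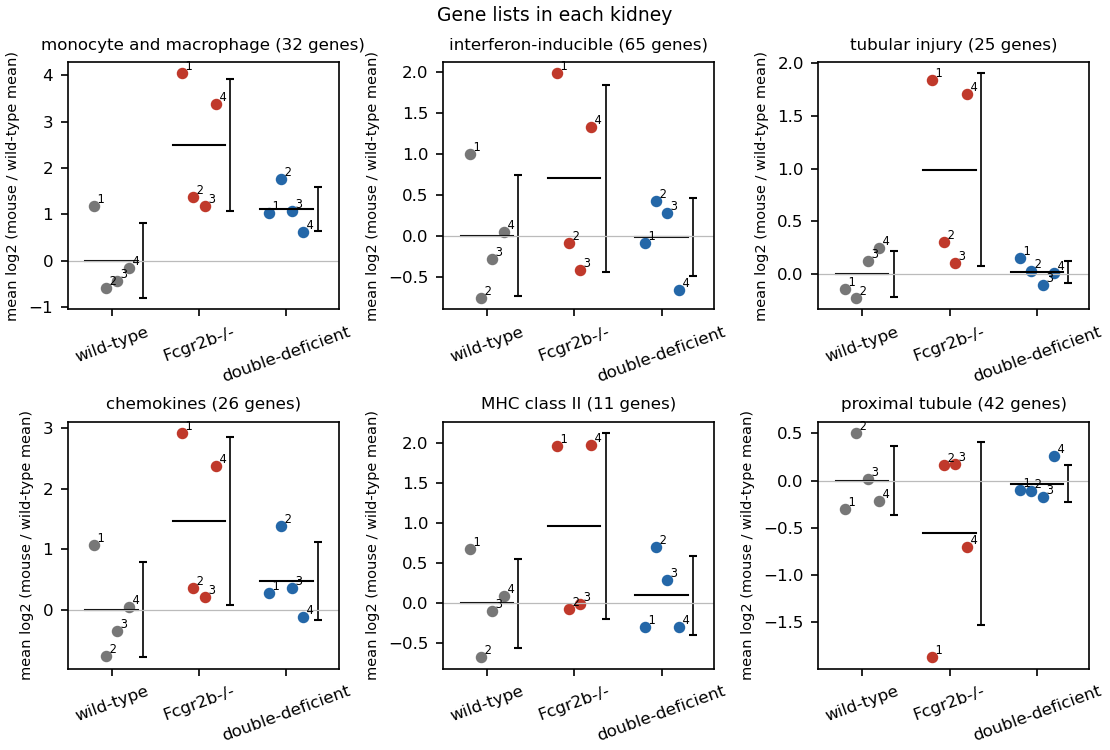
Levels of 6 gene lists in each kidney. The vertical axis is the mean over the genes of log2 (mouse/wild-type mean), each point is a mouse numbered by replicate, horizontal lines are means and bars are SD over 4 mice. Fcgr2b-/- replicates 1 and 4 stand apart in all 6 panels, and replicates 2 and 3 lie among or close to the double-deficient mice.

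The genes with no overlap between the groups were those whose order held in all 8 mice. Of the probes, 364 (1.02%) had such groups, and 41 of these were also at least 2-fold apart, 31 lower and 10 higher, 32 of them with a gene name. Groups without overlap have the smallest exact two-sided Mann-Whitney p that 4 against 4 mice allow, 0.0286, and after Benjamini-Hochberg adjustment it was 1. The 1.02% of probes with such groups lay below the share of 0.0286 expected if the genotypes did not differ. The count depended on single mice, since it was 442 without Fcgr2b-/- replicate 3, 243 without replicate 2, and 208 without double-deficient replicate 2.

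The 8 largest of the lower genes were Cd300e, Clec4a1, Fut7, Lrrc25, Ear2, F10, Rnase2a, and Ear1. Cd300e, an activating receptor of monocytes, was at 2.22, −0.84, −0.65, and 2.38 in the Fcgr2b-/- mice and at −1.38, −1.74, −1.02, and −1.76 in the double-deficient mice (difference −2.25, SE 0.70). Even the lower Fcgr2b-/- mice lay above the highest double-deficient mouse, by a small margin. Clec4a1, a C-type lectin of monocytes and macrophages, was at 3.72, 0.0051, −0.10, and 2.98 and at −0.31, −0.35, −0.41, and −1.03 (difference −2.17, SE 0.72). Lrrc25, a leucine-rich repeat protein of myeloid cells, was at 0.83, −1.94, −1.84, and 0.48 and at −2.71, −2.53, −2.43, and −2.88 (difference −2.02, SE 0.59).

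Ear2, an eosinophil-associated ribonuclease, was at 3.79, 1.14, 0.75, and 3.25 in the Fcgr2b-/- mice and at 0.36, 0.27, 0.51, and −0.28 in the double-deficient mice (difference −2.02, SE 0.68). Its close paralogs Ear1, Ear10, and Rnase2a differed by −1.90, −1.86, and −1.92, and because the probes need not separate their RNA, the 4 are not independent of each other. Fut7, the fucosyltransferase that makes selectin ligands on leukocytes, differed by −2.05 (SE 0.65), with 3 of 4 double-deficient arrays well above background. F10, coagulation factor X, was at 2.18, −1.57, −1.52, and 0.77 and at −1.64, −1.90, −1.86, and −2.66 (difference −1.98, SE 0.71). Its separation rested on a narrow gap, with Fcgr2b-/- replicates 2 and 3 just above double-deficient replicate 1.

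Among the largest of the higher genes, with all double-deficient mice above all Fcgr2b-/- mice, were Lin7a, Ankrd34b, Cacnb4, Gm2895, Tchhl1, Tdrd12, and Iqgap2. Lin7a, a scaffold protein of cell polarity, was not well above background on any Fcgr2b-/- array and was at least 2.06-fold higher in the double-deficient mice. The bound compares the brighter mean with, on each dimmer array, the higher of the probe's signal and the faintest signal that was well above background.
Cacnb4, a calcium channel subunit, was at −3.11, −1.36, −1.22, and −1.56 and at −0.71, −0.73, −0.94, and −0.72 (difference 1.04, SE 0.39). Ankrd34b was at −4.31, −3.12, −2.60, and −3.90 and at −2.36, −2.13, −2.32, and −2.28 (difference 1.21, SE 0.38). The other 4 differed by 0.70 to 0.98. For Cacnb4 and Ankrd34b the double-deficient mice lay close together, and the lowest values were those of Fcgr2b-/- replicates 1 and 4.

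**Figure D3:**
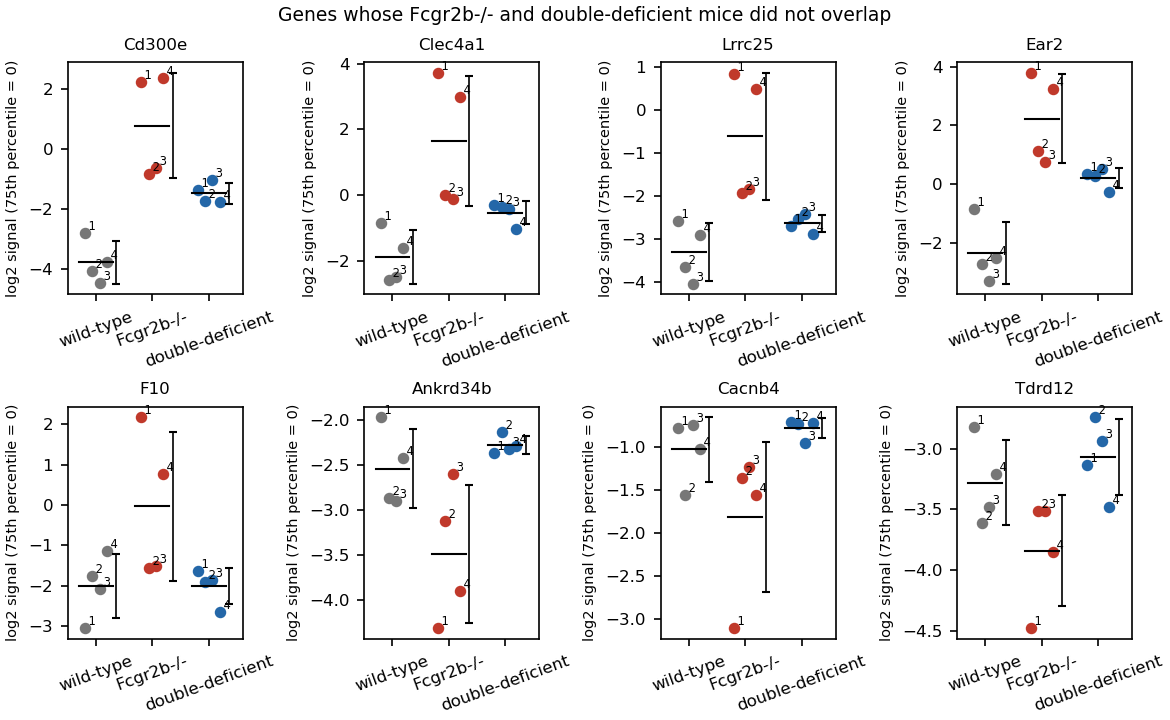
Genes whose Fcgr2b-/- and double-deficient mice did not overlap. The vertical axis is the log2 signal with the 75th percentile of the array at 0, each point is a mouse numbered by replicate, lines are means and bars are SD over 4 mice. Cd300e, Clec4a1, Lrrc25, Ear2, and F10 were lower in every double-deficient mouse, and Ankrd34b, Cacnb4, and Tdrd12 were higher.

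Genes that limma called between the Fcgr2b-/- and wild-type mice were then followed into the double-deficient mice. The 2 comparisons share the Fcgr2b-/- arrays, so the values are only set side by side. There were 14 named genes with a called brightest probe, 13 higher in the Fcgr2b-/- mice and Cfap126 lower. Ifi202b, an interferon-inducible gene of the Ifi200 family, was at 3.27, −0.23, −1.06, and 1.94 in the Fcgr2b-/- mice, at −0.52, 0.69, −0.39, and −1.47 in the double-deficient mice, and not well above background on any wild-type array. Its difference between the mutants was −1.40 (SE 1.11), smaller than the spread. S1pr5, a sphingosine phosphate receptor of natural killer cells and patrolling monocytes, differed by −1.15 (SE 0.51), and Pou2f2, a transcription factor of B cells and myeloid cells, by −1.26 (SE 0.36) with no overlap. Treml4 differed by −1.61 (SE 0.61) and Itln1, an intelectin, by −1.08 (SE 0.65). Cfap126, a cilium gene, was at −0.37, −0.25, −0.85, and 0.34 and at −0.13, −0.58, −0.12, and −0.77, against 2.19 ± 0.56 (SD, n = 4) in wild-type, and its difference of −0.12 (SE 0.36) was within the spread.

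In the double-deficient mice, the 13 genes that were higher in the Fcgr2b-/- mice had higher means than in wild-type, and limma called none of them against wild-type (adjusted p = 0.208 to 1.0). For 5 of them no wild-type array was well above background, so only a bound can be given. It was at least 20.3-fold for Ifi202b, 4.61-fold for Fpr1, 4.26-fold for Acod1, 1.75-fold for S1pr5, and 1.72-fold for Itln1, which had signal on 3 of 4 double-deficient arrays. Among the other 8, the difference was 1.01 for Pou2f2 and 4.38 for Clec4e, which had signal on 1 wild-type array each. Cfap126 was lower than wild-type by −2.59 (adjusted p = 0.106 from limma). Strain runs with the Fcgr2b genotype in these 2 differences and cannot be told apart from it.

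Interferon-inducible genes were lower in the double-deficient mean. Of 65 tested, 59 were lower, 14 at least 2-fold and 9 at an unadjusted p under 0.05, with a median of −0.72, and 0 had separate groups. The mean level relative to wild-type was 1.98, −0.092, −0.42, and 1.33 in Fcgr2b-/- replicates 1 to 4 and −0.093, 0.42, 0.28, and −0.66 in the double-deficient mice. Wild-type mice ran from −0.76 to 0.99. The mean difference was −0.72, but −0.29 without Fcgr2b-/- replicate 1 and −1.09 without replicate 3. It was −1.17 within slide 1 and 0.43 within slide 2, and 0.30 and −0.98 among the arrays of high and of low Y-linked signal.

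Of the real-time PCR genes of the study, Irf7, the master regulator of interferon production, was at 5.29, 3.50, 2.86, and 5.03 in the Fcgr2b-/- mice and at 2.77, 2.46, 3.44, and 2.32 in the double-deficient mice (difference −1.42, SE 0.50). Isg15, a ubiquitin-like modifier, was at 3.97, 2.03, 1.44, and 3.59 and at 1.58, 1.51, 2.03, and 0.98 (difference −1.23, SE 0.51). Irf5 differed by −0.47 (SE 0.32) and Irf3, which STING activates after transcription, by 0.058 (SE 0.25). For Irf7, double-deficient replicate 3 lay within the Fcgr2b-/- range, and for Isg15 replicates 1, 2, and 3 did.
Oas2 and Oas1a, synthetases of 2′-5′ oligoadenylates that activate RNase L, differed most in the list. Oas2 was at 2.56, −1.65, −1.20, and 0.73 and at −2.07, −2.03, −0.93, and −2.13 (difference −1.90, SE 0.83). Oas1a was at 4.24, 1.63, 1.23, and 3.92 and at 1.10, 0.85, 1.52, and 0.59 (difference −1.74, SE 0.60). Samd9l was highest among those that were higher, by 0.51 (SE 0.33).

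**Figure D4:**
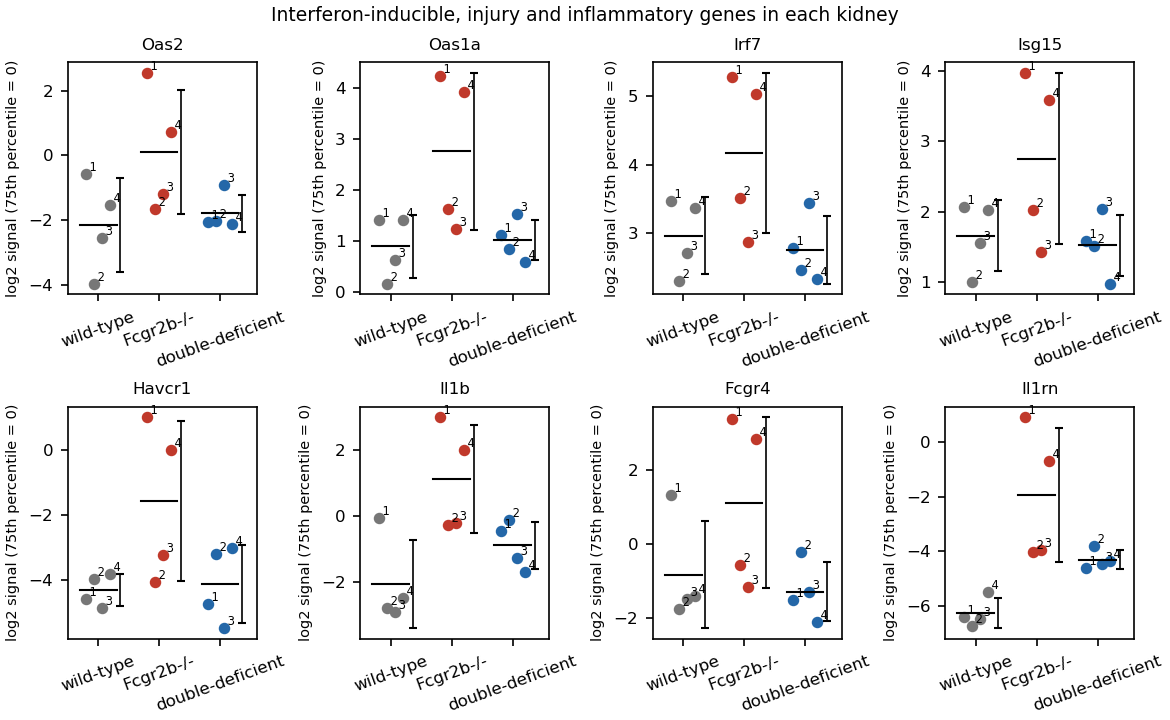
Interferon-inducible, injury, and inflammatory genes in each kidney. The vertical axis is the log2 signal with the 75th percentile of the array at 0, each point is a mouse numbered by replicate, lines are means and bars are SD over 4 mice. Oas1a was at 4.24 and 3.92 in Fcgr2b-/- replicates 1 and 4, against 0.59 to 1.52 in the double-deficient mice.

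In the cGAS and STING pathway, 15 of 23 genes were lower, with 3 at an unadjusted p under 0.05 (Irf7, Samhd1, and Trex1), 5 at least 2-fold and a median of −0.20. Ifi204, a DNA-binding member of the Ifi200 family, differed by −1.29 (SE 0.90). The mean difference of the list was −0.35, against −0.50 within slide 1 and −0.013 within slide 2. The list of Fc receptors and related chains (Fcgr1, Fcgr2b, Fcgr3, Fcgr4, Fcgrt, Fcer1g, Fcer2a, and Fcrla) gave 5 of 8 lower, 3 of them at an unadjusted p under 0.05. Its mean difference of −0.70 was −1.20 within slide 1 and 0.053 within slide 2. Fcgr4 was at 3.37, −0.57, −1.16, and 2.83 in the Fcgr2b-/- mice and at −1.51, −0.21, −1.30, and −2.12 in the double-deficient mice (difference −2.40, SE 0.97), and Fcgr1 differed by −2.26 (SE 0.84). Both are activating receptors of myeloid cells.

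Chemokines included 23 of 26 genes lower, 12 at least 2-fold and 5 at an unadjusted p under 0.05, with a median of −0.89. Ccl8, a monocyte attractant, was at 3.98, −0.53, −1.45, and 3.56 and at −1.23, 0.60, −1.09, and −1.87 (difference −2.29, SE 1.11). Ccl7 differed by −2.25 (SE 1.16) and Ccl28, an epithelial chemokine, by 0.90 (SE 1.02). Of the inflammatory cytokines and their regulators, 22 of 25 were lower, 6 of them with an unadjusted p under 0.05, and the median was −0.82. Il1b was at 3.02, −0.27, −0.22, and 2.02 and at −0.47, −0.13, −1.27, and −1.69 (difference −2.03, SE 0.82), and its receptor antagonist Il1rn differed by −2.37 (SE 0.84). For chemokines the mean difference of −0.99 was −0.50 without Fcgr2b-/- replicate 1, −1.61 within slide 1, and 0.33 within slide 2. For cytokines the mean of −0.88 became −0.47, −1.32, and 0.12.

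Antigen presentation genes followed. Of the MHC class II genes 10 of 11 were lower, 5 at least 2-fold and 4 at an unadjusted p under 0.05, with a median of −0.95. H2-Ab1, a chain of the class II molecule, was at 7.29, 5.72, 5.58, and 7.34 in the Fcgr2b-/- mice and at 5.06, 5.54, 5.78, and 5.01 in the double-deficient mice (difference −1.14, SE 0.44). Ctss, the protease that trims the invariant chain, differed by −1.51 (SE 0.83). MHC class I genes and the immunoproteasome gave 16 of 19 lower with a median of −0.58, among them Nlrc5 by −1.0 (SE 0.96) and Psmb8 by −0.97 (SE 0.53). The mean difference of the class II genes, −0.87, was −0.53 without Fcgr2b-/- replicate 1 or without replicate 4. It was −1.60 within slide 1 and 0.25 within slide 2. The class I mean of −0.51 was −0.32 and −0.31 without these mice, −0.88 within slide 1, and 0.19 within slide 2.

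In the list of dendritic cell genes, 14 of 20 were lower, 2 of them at an unadjusted p under 0.05, with a median of −0.56. Klk1 of this list also stands in the loop, distal, and collecting duct list, and Bst2 in the interferon-inducible list. Itgax (CD11c) was at 2.86, −0.64, 0.43, and 2.39 and at −0.98, 0.48, −0.33, and −0.72 (difference −1.65, SE 0.75), and the lectin Clec10a differed by −1.60 (SE 0.95). T cell genes gave 22 of 24 lower with a median of −0.93, and cytotoxic genes 11 of 12 with a median of −0.82, with 2 and 0 at an unadjusted p under 0.05. Ccl5, made by activated T cells, was at 4.07, 0.91, 0.40, and 3.26 and at 0.22, 1.35, 1.10, and 0.34 (difference −1.41, SE 0.67). Pdcd1, Icos, and Cst7 differed by −2.0, −1.97, and −1.42, but they were well above background on at most 3 arrays of either group. B and plasma cell genes did not share the direction, with 6 of 17 lower and 11 higher (median 0.073) and none at an unadjusted p under 0.05. Irf4, a factor of plasma cells, differed by −0.75 (SE 0.80). Neutrophil and eosinophil genes gave 11 of 15 lower, with 4 at an unadjusted p under 0.05, namely Ear2, Ear1, Ear10, and Lcn2. Without the 3 ribonuclease genes named in the earlier report, 8 of 12 were lower and 1 was at an unadjusted p under 0.05. The neutrophil and eosinophil mean of −0.73 became −0.41 without Fcgr2b-/- replicate 1, and it was −1.07 within slide 1 and −0.21 within slide 2.

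The lymphocyte and dendritic cell lists depended on single mice. The T cell mean of −0.88 was −0.30 without Fcgr2b-/- replicate 1 and 0.39 within slide 2. The cytotoxic mean of −0.76 was −0.24 without that mouse, −0.50 without replicate 4, −1.15 without replicate 2, −1.14 without replicate 3, and 0.61 within slide 2. The dendritic cell mean of −0.55 was −0.21 without replicate 1, −0.35 without replicate 4, and −0.87 without replicate 2. It was −0.85 without double-deficient replicate 2 and 0.18 within slide 2. Within slide 1 the T cell, cytotoxic, and dendritic cell means were −1.74, −1.81, and −1.12. The B and plasma cell mean of 0.075 ran from −0.27 to 0.34 with an array left out, so it has no settled direction.

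Complement genes included 16 of 22 lower with a median of −0.79, and 5 at an unadjusted p under 0.05, among them the 3 chains of C1q. These chains also stand in the monocyte and macrophage list. Cfp (properdin), which stabilizes the alternative pathway convertase, differed by −1.76 (SE 0.80), C5ar1 by −1.67 (SE 0.79), and Cd55, which speeds convertase decay, by 0.60 (SE 0.49). The mean difference of the list, −0.74, was −0.38 without Fcgr2b-/- replicate 1, −1.01 within slide 1, and 0.16 within slide 2.

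Tubular injury genes were lower in 24 of 25 cases, 8 at least 2-fold and 7 at an unadjusted p under 0.05, with a median of −0.81. Their mean level relative to wild-type was 1.84, 0.30, 0.10, and 1.71 in Fcgr2b-/- replicates 1 to 4 and 0.15, 0.028, −0.10, and 0.0078 in the double-deficient mice. The double-deficient mice lay within the wild-type range of −0.23 to 0.25. Havcr1 (Kim-1), which proximal tubule cells express after damage, was at 1.0, −4.05, −3.24, and −0.0029 in the Fcgr2b-/- mice and at −4.76, −3.21, −5.49, and −3.03 in the double-deficient mice (difference −2.55, SE 0.94), with 3 of 4 Fcgr2b-/- and 2 of 4 double-deficient arrays well above background. Lcn2 (NGAL), made by distal tubule and neutrophils, was at 3.33, −0.22, −0.90, and 3.96 and at −0.46, 0.15, −1.01, and −0.36 (difference −1.96, SE 0.85). Sprr2f, a small proline-rich protein of stressed epithelium, was not well above background on any double-deficient array and was at least 3.85-fold higher in the Fcgr2b-/- mice, where 3 of 4 arrays had signal. Sox9 differed by 0.31 (SE 0.30). The mean difference of the list was −0.97, and it ran from −1.26 to −0.68 with an array left out. Within slide 2 it was −0.13 and within slide 1 −1.13, and among the arrays of high and of low Y-linked signal −0.086 and −1.26.

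**Figure D5:**
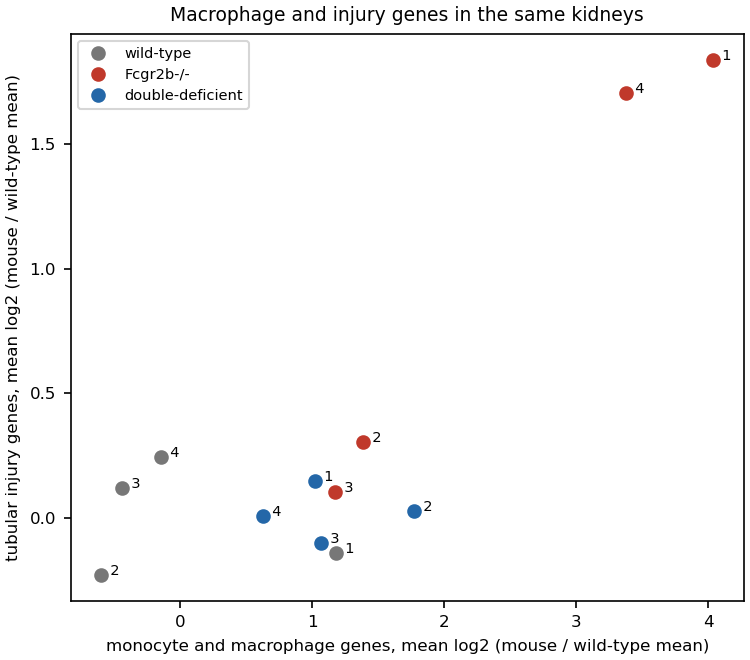
Monocyte and macrophage genes against tubular injury genes in the same kidneys. Both axes are the mean over the list of log2 (mouse/wild-type mean), and each point is a mouse numbered by replicate and colored by genotype. Only Fcgr2b-/- replicates 1 and 4 of these 12 mice have both means above 1.5. No correlation is given, since the 2 lists share the gene Spp1, were measured on the same arrays, and the mice fall into separate groups.

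Matrix and mesangial genes gave 26 of 31 lower, 10 at least 2-fold and 3 at an unadjusted p under 0.05, with a median of −0.65. Timp1, an inhibitor of matrix proteases, was at 4.62, −1.23, −0.89, and 2.30 and at −1.0, 0.38, −1.56, and −1.65 (difference −2.16, SE 0.96). Col1a1, a fibrillar collagen, differed by −1.75 (SE 0.89) and Timp3 by 0.49 (SE 0.28). Podocyte genes (13 of 18 lower, median −0.30, none at an unadjusted p under 0.05) and endothelial genes (9 of 16 lower, median −0.10) differed less. Cell cycle genes gave 37 of 40 lower with a median of −0.64 and 3 at an unadjusted p under 0.05. Uhrf1, which maintains DNA methylation in dividing cells, differed by −1.48 (SE 0.57). Immediate early genes gave 23 of 24 lower and 4 at an unadjusted p under 0.05, with Egr2 at −2.24 (SE 0.88) and Fos at −1.69 (SE 0.76).

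Without Fcgr2b-/- replicate 1, the mean difference of the matrix genes went from −0.71 to −0.20, that of the podocyte genes from −0.26 to −0.031, that of the cell cycle genes from −0.58 to −0.19, and that of the endothelial genes from −0.086 to 0.11. Without replicate 2 the matrix and podocyte means were −1.13 and −0.41, and without replicate 3 the cell cycle mean was −0.88. Within slide 2 the matrix, podocyte, cell cycle, and endothelial means were 0.19, 0.088, 0.36, and 0.15. Within slide 1 they were −1.01, −0.42, −1.01, and −0.37. The immediate early mean of −0.66 was −0.46 without replicate 1, −0.78 within slide 1, and −0.25 within slide 2.

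The proximal tubule genes ran the other way. Of 42 proximal tubule genes, 40 were higher in the double-deficient mean, with a median of 0.45, and 2 (Slc5a12 and Slc4a4) were at an unadjusted p under 0.05. Slc5a12, Kap, Slc22a7, Slc22a12, and Cyp2e1 also stand in the list of male-biased kidney genes, and Acsm2 in the female-biased list. The mean level relative to wild-type was −1.87, 0.17, 0.18, and −0.70 in Fcgr2b-/- replicates 1 to 4 and −0.10, −0.11, −0.18, and 0.26 in the double-deficient mice. Among these 42 genes, 6 were at least 2-fold below the wild-type mean in Fcgr2b-/- replicate 4 and 1 to 5 in each double-deficient mouse, but 35 in Fcgr2b-/- replicate 1. In wild-type replicates 1 to 4 there were 7, 0, 3, and 3. Of all 16401 named genes, 2973 were that low in Fcgr2b-/- replicate 1, against 305 to 1277 in the other compared mice. The mean difference of 0.53 was 0.088 without Fcgr2b-/- replicate 1, so most of it rested on a single kidney. Within slide 1 it was 0.70 and within slide 2 −0.18, and among the arrays of high and of low Y-linked signal −0.10 and 0.66. The gene with the largest difference, Slc7a13, a cystine transporter (difference 2.47, SE 3.09), was at −4.01, −2.23, 5.99, and −3.67 in the Fcgr2b-/- mice and at −3.84, 6.43, −2.52, and 5.91 in the double-deficient mice. Its high values were in exactly the 3 mice with high Y-linked signal, and male-biased kidney genes were higher in the double-deficient mean for 13 of 14 (median 0.75), against 7 of 13 female-biased ones (median 0.044). Xist, expressed in females, differed by −1.04.

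Metabolic lists and the loop, distal, and collecting duct list were higher by small differences that rested on Fcgr2b-/- replicate 1. Without it, the mean difference went from 0.25 to −0.0040 for the respiratory chain, from 0.26 to 0.0081 for fatty acid and peroxisome genes, from 0.42 to 0.11 for xenobiotic metabolism, from 0.19 to −0.15 for the loop, distal, and collecting duct, and from 0.14 to −0.049 for cholesterol synthesis. The respiratory chain genes were at −1.17 in that mouse, 0.38, −0.28, and −0.59 in replicates 2 to 4, and −0.34 to −0.054 in the double-deficient mice. Without replicate 2 their mean difference was 0.51, and that of the fatty acid genes also 0.51. Respiratory chain genes were higher in 69 of 70 cases with a median of 0.23 and none at an unadjusted p under 0.05, and Cox6b1, a subunit of complex IV, differed by 0.52 (SE 0.37). Fatty acid and peroxisome genes were higher in 40 of 45 (median 0.32) and xenobiotic metabolism genes in 37 of 44 (median 0.30). Acsm1, a medium-chain acyl-CoA synthetase, differed by 1.03 (SE 0.64), Fabp1 by −1.11 (SE 1.59), Hmox1 by −0.65 (SE 0.44), and Ugt2b38 by 1.45 (SE 1.45). The loop, distal, and collecting duct genes were higher in 24 of 34 (median 0.17), with the largest difference in Pvalb, a calcium-binding protein of the distal convoluted tubule, at −1.94, 4.32, 2.78, and 1.97 and at 4.07, 4.12, 3.42, and 2.51 (difference 1.75, SE 0.91). Cholesterol synthesis genes were higher in 13 of 21 (median 0.10), with Idi1 at 0.74 (SE 0.85).

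Markers of other tissue, and clock genes, differed little in the mean. Red cell genes gave 4 of 10 lower (median 0.12), adrenal genes 1 of 7 (0.10), lymphoid tissue genes 5 of 10 (0.015), clock genes 5 of 17 (0.15), and adipocyte genes 8 of 16 (−0.076). For red cell and lymphoid genes the mean difference was of the other sign, −0.015 and −0.040. The adipocyte genes were at 1.62 in Fcgr2b-/- replicate 1, −0.61 to −0.99 in the others of that group, and −1.56 to 0.89 in the double-deficient mice, while the wild-type mice ran from −0.92 to 2.36.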

How the data were processed

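Kidney RNA of 16 mice, 4 of each genotype, was measured on single-color arrays, and each genotype and replicate came from the labels. A description label also holds a pair of numbers for each sample, different as a pair for every array, whose first number some samples share and whose meaning is not given. The authors deposited scanner files of Agilent Feature Extraction 11.0 (version from the submitters' processing notes), whose processed intensities had the background of each spot subtracted but were not scaled between arrays, and their own log2 values of these arrays in a table whose making is not given in the sources used here. The members and the gene lists were chosen with earlier results of these data known.

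After removal of control and outlier spots, spots of a probe were averaged, and log2 of the intensity minus the 75th percentile of these probes was taken per array. The percentile over spots was also computed, before the wording of the design settled on averaged probes, and is kept as an alternative. Each array had 28443 to 35566 probes with signal well above background, 0 spots were saturated, and the number of arrays limits the precision. Probes with such signal on 4 or more of 16 arrays entered limma 3.58.1 in R 4.3.3 (lmFit, then eBayes), where all 16 arrays shared a model of 4 genotype means. Tested on simulated data of 35629 probes with 200 changed, this comparison recovered 60.5% at a log2 change of 2, with 7 false calls. At a log2 change of 3 it recovered 87%, with 18 false calls. The simulated probes were independent, with the same SD in every genotype. The measured Fcgr2b-/- group was wider than the others, so recovery in the measured data can differ. Of 56605 probes, 32994 (58.3%) matched a symbol in a RefSeq table (GRCm38.p6), and the probe with the highest mean over all arrays stood for a gene. Mx1 had no named probe. The build of the array design differs from that of the table.

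The genes named are Fcgr2b and Sting1, the real-time PCR genes of the study, the 8 largest lower and 8 largest higher genes whose groups do not overlap and whose probe is well above background on all arrays of the brighter group, of each of the 35 lists the 2 largest decreases and the largest increase, and the genes called between Fcgr2b-/- and wild-type mice. Not all are printed, and some are not reported here. Other names were chosen after their values were seen. Alternatives were normexp (offset 50, on the median signal), quantile and median scaling, the authors' table, 2 filters, the 8 arrays alone, eBayes with trend and robust, blocks for slide, replicate number, and the leading label number, a Y-linked covariate, the median probe, the Mann-Whitney test of the methods, values within slides and within shared first numbers, and each array left out in turn. Values within Y-linked signal, the lists without genes named earlier, and the spot percentile were added after the data were seen. Scripts ran in Python 3.11.15 with pandas 2.3.3, numpy 2.4.6, scipy 1.17.1, and matplotlib 3.10.9.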

Additional observations from a re-analysis of the deposited data

Results flagged for a closer look

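Of 228 groups of 4 mice examined for a sample far from the other 3, 9 (3.95%) had one, and chance gives about 5%. The Fc receptor genes were at 0.545 in double-deficient replicate 2, against −0.56 to −0.47 in the others of its group. The adipocyte genes were at 1.62 in Fcgr2b-/- replicate 1, against −0.99 to −0.61. Among single genes in the double-deficient mice, Clec4a1 was at −1.03 and Ear10 at −2.53 in replicate 4, both below the others, and Hmox1 was at 3.10 in the same mouse, above them. Cacnb4 was at −0.94 in replicate 3, below the others, and Oas2 at −0.93 in that mouse, above the −2.13 to −2.03 of the others. Tchhl1 was at 0.84 in replicate 1, above the 0.62 to 0.63 of the others. In the Fcgr2b-/- group, Sprr2f was at −6.13 in replicate 2, against −2.14 to −1.91.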

How the results depend on the processing

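With limma, 0 probes were called under every alternative run. At an unadjusted p under 0.05 there were 645 probes, which became 1243 without the filter, 411 with the 8 arrays alone, 345 with slide as a block, 3610 with the leading label number as a random block, and 187 to 1974 with an array left out. The Mann-Whitney test of the methods gave 41 probes unadjusted with the 2-fold limit and 0 after adjustment. The 41 probes that were separate and 2-fold apart (31 lower, 10 higher) became 63 by median scaling (49 and 14), 24 by normexp (24 and 0), 29 in the authors' table (15 and 14), 127 without the filter, 17 with signal on all 16 arrays, and 44 to 442 with an array left out, where 3 against 4 mice separate more easily. The percentile over spots gave 629 and 37. The median difference of all probes was 0.019 to 0.095 across scalings.

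Same-numbered mice did not deviate together (correlations −0.48 to −0.18), so the numbers do not pair them. The replicate block gave 202 probes at an unadjusted p under 0.05 and 0 called.

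Within slide 2 the mean difference was 0.43 for interferon-inducible, −0.019 for macrophage, −0.13 for injury, and −0.18 for proximal tubule genes. Within the arrays of high Y-linked signal it was 0.30, 0.025, −0.086, and −0.10, and within those of low signal, 3 Fcgr2b-/- and 2 double-deficient mice, −0.98, −1.89, −1.26, and 0.66. Between mice sharing the leading label number 88 the injury genes differed by −1.81, and between those sharing 89 by −0.096. Of 35 lists, 25 turned sign within slide 2, 6 within slide 1, 24 within high Y-linked signal, and 8 without Fcgr2b-/- replicate 1. Within low Y-linked signal 6 turned, with slide as a block 5, and with the Y-linked covariate 2. Slide 2, the high Y-linked signal, and each shared number hold 1 Fcgr2b-/- mouse. Without replicate 1 the interferon, macrophage, and proximal tubule means of −0.72, −1.37, and 0.53 were −0.29, −0.86, and 0.088. The cause was not tested.

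Among 79 genes, Irf3 and Cfap126 turned sign. Irf3 was at −0.0026 by quantile scaling, −0.0034 in the authors' table, −0.030 with slide as a block, and −0.15 to 0.23 with an array left out. Cfap126 was at −0.31 to 0.090 with an array left out.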
